A study of Mus musculus with 2 samples.

Results

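Dermal fibroblasts are the cells that secrete and maintain the collagen-rich matrix beneath the epidermis. They were examined here in back skin of a mouse in which the microRNA miR-205 had been switched on in the epithelium and of a control mouse. A cell was counted as a fibroblast when it carried at least 20 unique molecular identifiers (UMIs, tags that let each captured RNA molecule be counted once) of Col1a1, Col1a2 and Col3a1 together. It also had to carry fewer than 3 UMIs of Crabp1, Notum, Inhba and Corin together, genes used as marks of the dermal papilla, the mesenchymal signalling centre at the base of the hair follicle. The last limit was fewer than 30 UMIs of Krt5 and Krt14 together, the keratins of basal epithelial cells. In all, 211 of 7564 kept cells met these limits, 96 in the control library and 115 in the induced library. The cells were thus chosen by the measured UMIs of these 9 genes, whose levels in fibroblasts are given only as a description.

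Each group was 1 library of sorted back skin cells taken at postnatal day 53 from gender-matched mice labelled C57BL/6. Both mice carried the K14-H2BGFP allele, which marks epithelial nuclei with a fluorescent histone. The miR-205 inducible mouse ate doxycycline chow for 4 days from postnatal day 49. Its transgene answers to a doxycycline-dependent activator under the keratin 14 promoter, which is an epithelial and not a fibroblast driver, and the transgene was founded in FVB mice. The control mouse is labelled untreated in 1 field, while the protocol text shared by both samples has both mice fed doxycycline, so a difference between the libraries cannot be told apart from chow, the individual mouse or its genetic background. By the study's methods controls were littermates, and the pair was run together on 1 chip. Cells were sorted on surface proteins and the fluorescent histone to 3 parts epidermal, 5 parts hair follicle and 2 parts dermal cells, after subcutaneous fat was removed. With 1 library per group there is no replicate error and no test between groups. Every interval below is a 95% interval that covers counting error only, and "higher" and "lower" compare these 2 libraries.

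Dermal fibroblasts come in several kinds. Papillary fibroblasts lie close to the epidermis, reticular fibroblasts fill the deeper dermis with thick collagen bundles, and fascia or adventitial fibroblasts sit beneath it and around vessels. Besides building matrix they read growth factors such as platelet-derived growth factor and transforming growth factor beta, and in response to infection or injury they make chemokines, complement and interferon-stimulated proteins. A microRNA acts by pairing its seed, the bases near its 5′ end, with messenger RNAs, which lowers their stability or translation. The mature strand induced in this study is printed because examples of its bound targets are followed below, with the seed (bases 2 to 8) in capitals; it lies on the minus strand of chr1:193507503-193507524 in RefSeq on GRCm38.p6.

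mmu-miR-205-5p: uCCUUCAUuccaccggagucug

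In total, 4545 control barcodes carried 55465594 UMIs and 4264 induced barcodes carried 49733560. Cells with more than 200 and fewer than 5000 genes and under 10% mitochondrial UMIs were kept, which left 86.6% and 85.1% of barcodes. The libraries shared 11 barcodes, and none of the fibroblasts carried a shared barcode. Fibroblasts were sequenced to like depth in both libraries, with medians of 11225 UMIs and 2831 genes in control cells and of 11095 UMIs and 2747 genes in induced cells. Summed over cells, fibroblasts gave 1125452 control UMIs and 1268176 induced UMIs. Their median mitochondrial share was 4.37% in the control library and 4.56% in the induced library.

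The label was checked against Dcn, which encodes decorin, a proteoglycan that decorates collagen fibrils, and Pdgfra, the platelet-derived growth factor receptor that marks fibroblasts; neither was used to choose the cells. With every cell thinned to 3000 UMIs, Dcn was detected in 96.7% of control and 96.4% of induced fibroblasts. In cells with 30 or more keratin UMIs and fewer than 20 collagen UMIs, where Dcn should be absent, it was detected in 1.84% (1.39 to 2.38%) of control and 1.44% (1.01 to 1.99%) of induced cells, which is read as background. Pdgfra was detected in 33.7% of control and 41.8% of induced fibroblasts, against 0.03% and 0.04% of the keratin-rich cells. Lum, another small proteoglycan of collagen fibrils, was detected in 92.4% and 89.1% of fibroblasts. Thinning left out 4 control and 5 induced fibroblasts that were shallower than this depth. Without thinning, Dcn was found in 94 of 96 control and 112 of 115 induced fibroblasts and Pdgfra in 69 and 80 of them. Set against the keratin-rich cells, the markers therefore go with the label in both libraries.

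**Figure D1:**
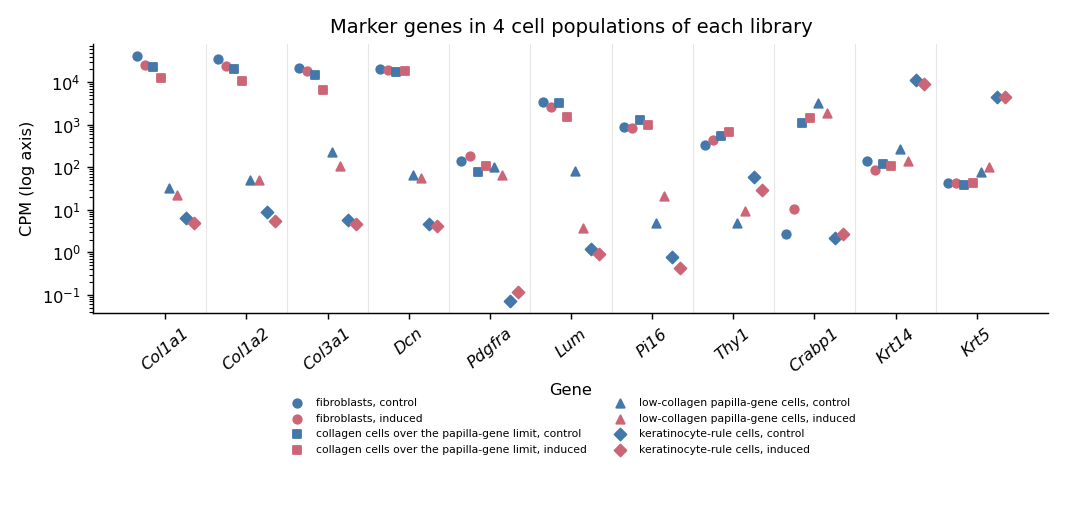
Level in CPM (UMIs scaled to 1000000 UMIs of the summed cells, log axis) of 11 marker genes in 4 cell populations of the control (blue) and induced (red) libraries; marker shapes give the population, and open symbols stand at the limit of 3 UMIs where no UMI was counted. Dcn lies at 20770.3 CPM in control and 19845.8 CPM in induced fibroblasts.

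Transcripts of immune and endothelial cells were sparse in fibroblasts. T cell genes gave 1 UMI in each library and mast cell genes none. The 12 adipogenic markers gave 2509 control and 3538 induced UMIs (2229 and 2790 CPM). Among them Cebpb gave 1537 and 2336, Apoe 786 and 956, and Lpl 134 and 129 UMIs. Adipoq, Plin1 and Fabp4, genes of fat cells in the same list, gave none. The 8 endothelial genes gave 15 UMIs in each library, with Cldn5, Lyve1 and Emcn at 0. Epithelial genes summed to 633 CPM in control and 498 CPM in induced fibroblasts, against 45015.8 and 43254 CPM in the keratin-rich cells. The 10 myeloid and Langerhans genes summed to 163 and 218 CPM, of which Mfge8 gave 128 of 184 control and 185 of 277 induced UMIs. Schwann cell genes gave 114 UMIs in control and 417 in induced fibroblasts, 284 of the latter in a single induced cell. The 8 pericyte markers gave 719 and 578 UMIs (639 and 456 CPM), of which Ndufa4l2, a mitochondrial subunit of hypoxic and mural cells, gave 628 and 421, while Rgs5, a G protein regulator of pericytes, gave 14 and 74, each in 1 cell. The 18 papilla markers outside the rule gave 371 and 598 UMIs (330 and 472 CPM), and the dermal sheath and smooth muscle markers 170 and 221. Whether these cells bear on the ratios below was tested only by the alternative limits given beside single genes.

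Few cells sat at the limits of the rule. Between 20 and 24 collagen UMIs there were 4 control and 2 induced fibroblasts, and between 15 and 19 UMIs 3 control and 5 induced cells fell just outside. At 2 UMIs of the papilla genes there were 8 and 9 fibroblasts, and at 3 or 4 UMIs 9 and 10 cells fell just outside. No fibroblast had 10 to 29 keratin UMIs, and the 3 control and 6 induced cells left out by that limit carried 100 to 625.

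A further 21 control and 33 induced cells met the collagen and keratin limits but exceeded the papilla limit. They exceeded it through Crabp1 or Inhba, since no cell reached 3 UMIs of Notum or of Corin alone. Crabp1 alone took 10 control and 22 induced cells over the limit, and Inhba alone took 11 and 11. These cells carried a median of 477 and 225 collagen UMIs, and Dcn was found in 20 of 21 and 33 of 33 of them. After thinning, Pi16, a gene of adventitial and fascia fibroblasts, was detected in 66.7% (43.0 to 85.4%) of control and 81.2% (63.6 to 92.8%) of induced cells of this kind, against 64.1% and 50.9% of the fibroblasts; without thinning the values were 81.0% and 87.9% against 77.1% and 62.6%. Rspo4, a WNT agonist of the papilla, was detected after thinning in 4 of 21 control cells (5.45 to 41.9%) and 8 of 32 induced cells (11.5 to 43.4%) over the limit. In fibroblasts Rspo4 was found without thinning in 3 of 96 control and 5 of 115 induced cells, on 4 and 7 UMIs, and after thinning in 0 of 92 and 3 of 110. Sox2, a papilla transcription factor, was found in 0 control and 1 induced cell over the limit and in 1 and 2 fibroblasts. The 125 control and 191 induced cells with at least 3 papilla-gene UMIs and few collagen UMIs had Pi16 in 2.75% and 3.93% of cells after thinning, from median depths of 4677 and 5615 UMIs.

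Set beside all other kept cells, which are mostly keratin-rich, the genes with the highest folds in fibroblasts included many of matrix assembly. As a description, and counting genes with at least 500 UMIs in fibroblasts, the mean CPM of the 2 libraries exceeded that of the other cells by 550-fold for Ptx3, a secreted pentraxin that a few cells carried. It did so by 218-fold for Cpz, a carboxypeptidase that binds Wnt proteins, and by 167-fold for Clec3b, which encodes tetranectin. Eln and Fbn1, which encode the elastin and fibrillin of elastic fibres, stood at 165-fold and 165-fold, and Mfap5, a partner of fibrillin, at 154-fold. Pcolce2 and Col5a1, which act in the making of collagen fibrils, stood at 149-fold and 149-fold. Dcn stood 121-fold and Sparc, a secreted collagen-binding protein, 95.7-fold above the other cells. In the collagen cells over the papilla limit Ptx3 gave 0 UMIs in each library. Those cells carried the other genes named here, with Dcn at 17564 and 17903 CPM and Fbn1 at 693 and 482 CPM. Mfap5 stood there at 197 and 154 CPM against 256 and 276 CPM in fibroblasts. Apart from Ptx3, these genes are thus not particular to fibroblasts under this rule.

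The collagens of the rule varied widely among cells. For Col1a1 the median was 255.5 UMIs in control cells and 69 in induced cells, with quartiles of 42.75 to 724 and 25 to 310.5. Col1a2 stood at 232 and 59, and Col3a1 at 145.5 and 87. These quartile ranges overlap, and the levels summed over cells were 40900.0 and 25484.6 CPM for Col1a1. The 3 genes chose the cells, so no comparison is read from them.

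Fibroblasts were 2.44% (1.98 to 2.97%) of kept control cells and 3.17% (2.62 to 3.79%) of kept induced cells. The difference was 0.73 percentage points (−0.0136 to 1.49), an interval that holds 0. The sort fixed the dermal part of each library, so this share does not measure how many fibroblasts the skin held.

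Expression was compared on the log2 ratio of induced to control CPM, with 0.5 UMIs added to each sum. Of 2936 genes with at least 100 UMIs in fibroblasts, 45 (1.53%) were at least 2-fold higher and 15 (0.511%) at least 2-fold lower in the induced library, and the median ratio was 0.03. Of 7519 genes with at least 20 UMIs, which is the minimum used for the gene lists below, 320 (4.26%) were at least 2-fold higher and 149 (1.98%) at least 2-fold lower, with a median of 0.04. These shares are the background for every count of genes past 2-fold that follows. As background for counts of direction, 4055 of the 7519 genes were higher and 3464 lower in the induced library. The interval lay wholly above 0 for 743 of them and wholly below 0 for 468.

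Among collagen chains outside the rule, 2 of 18 tested were at least 2-fold higher in the induced fibroblasts and none lower, with a median log2 ratio of 0.28. Col12a1, which sits on the surface of collagen fibrils, had 5 control and 20 induced UMIs (log2 ratio 1.73, 0.37 to 3.60), and Col8a1, a short-chain network collagen, had 3 and 20 (2.38, 0.81 to 4.96). Both rest on few molecules, in 3 and 9 cells and in 2 and 6 cells, and the ratio of Col12a1 was 0.41 among cells with no papilla-gene UMI. The chains with most UMIs differed little. Col5a2, a fibril-regulating collagen, stood at 1039.6 and 1053 CPM (0.02, −0.10 to 0.13), and Col6a1, a chain of the pericellular microfibrils, at 776 and 884 CPM (0.19). The lowest ratio was that of Col11a1, at 15 and 13 UMIs (−0.37, −1.57 to 0.79).

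Enzymes and chaperones that build collagen leaned the other way. Of 20 tested, 15 were lower and 5 higher in induced fibroblasts, none by 2-fold, and the median was −0.20; the interval lay wholly below 0 for 9 genes and above 0 for 1. P4ha2, a prolyl hydroxylase subunit that stabilises the collagen helix, had the lowest ratio, at 200.8 CPM in control and 121 CPM in induced fibroblasts (−0.73, −1.04 to −0.43). Fkbp10, a collagen chaperone, stood at 130 and 86.0 CPM (−0.59). Serpinh1, the collagen-specific chaperone of the endoplasmic reticulum, stood at 2323 and 2041 CPM (−0.19, −0.27 to −0.11), and Pcolce2, an enhancer of procollagen processing, at 866 and 726 CPM (−0.25). Loxl1, a crosslinking oxidase of elastic fibres, had the highest ratio (0.38, 0.09 to 0.67). Over the settings tried, the median of this list stayed between −0.29 and −0.18. None of these settings balanced the subgroups described below, over which the libraries were spread unevenly. Within subgroups, the list's summed level was lower in the induced cells of some and higher in those of others.

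Proteoglycans and elastic fibre genes stayed within 2-fold without exception among those tested. The 18 proteoglycan genes had a median of 0.27, with most UMIs in Dcn (−0.07, −0.09 to −0.04) and in Lum, at 3457 CPM in control and 2567 CPM in induced fibroblasts (−0.43, −0.50 to −0.36). Has1, a hyaluronan synthase, had the lowest ratio (−0.48) and Omd, osteomodulin, the highest (0.91, 0.14 to 1.78), at 20 and 43 UMIs. The 18 elastic fibre genes had a median of −0.01. Mfap4, a microfibril-associated glycoprotein, had the lowest ratio of them, at 1789 and 1439.9 CPM (−0.31), Fbn1 stood at 1117 and 950.2 CPM (−0.23), and Fbln1, fibulin 1, had the highest ratio (0.62, 0.39 to 0.86).

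Secreted glycoproteins that link cells to matrix moved apart from one another. Of 23 tested, 3 were at least 2-fold higher in the induced library and none lower, with a median of 0.38. Thbs1, thrombospondin 1, an activator of latent transforming growth factor beta, stood at 190 CPM in control and 411 CPM in induced fibroblasts (1.11, 0.88 to 1.35), with UMIs in 41 and 50 cells. Ecm1, extracellular matrix protein 1, stood at 108 and 229 CPM (1.08, 0.77 to 1.40), and Ctgf, connective tissue growth factor, at 37.3 and 76.5 CPM (1.03, 0.50 to 1.59). Fn1, fibronectin, was the lowest, at 873 and 545 CPM (−0.68, −0.82 to −0.54). Sparc followed, at 24324.4 and 16408 CPM (−0.57, −0.59 to −0.54), while Igfbp7, a secreted binder of insulin-like growth factors, stood at 1745 and 1959 CPM (0.17).

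**Figure D2:**
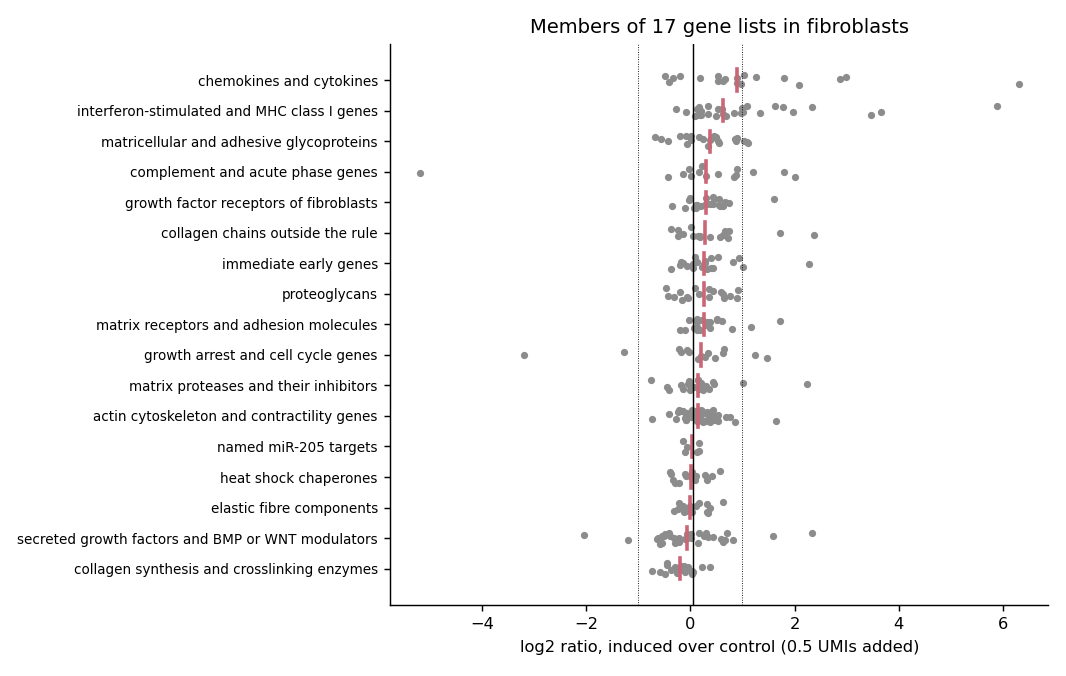
Each grey point is a gene of 1 of 17 lists, placed by its log2 ratio of induced to control fibroblast CPM (0.5 UMIs added); the red bar is the list's median, the solid line the median of all 7519 genes (0.04), and the dotted lines mark 2-fold. Chemokines and interferon genes have the highest medians, 0.89 and 0.62, and collagen synthesis enzymes the lowest, −0.20.

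Among 22 matrix proteases and inhibitors, 2 were at least 2-fold higher and none lower, with a median of 0.15. Plat, tissue plasminogen activator, stood at 14.2 CPM in control and 68.6 CPM in induced fibroblasts (2.23, 1.49 to 3.14), with UMIs in 11 and 22 cells. Serpine2, a serine protease inhibitor, had 19 and 44 UMIs (1.02, 0.23 to 1.90), and its ratio was −0.75 when only cells with no papilla-gene UMI were kept. Timp2, a metalloproteinase inhibitor, was level at 1627 and 1623 CPM (−0.00, −0.10 to 0.09), as was Serpinf1, a secreted inhibitor-like serpin (−0.03). Mmp27, a membrane-anchored metalloproteinase, was the lowest, at 119 and 70.2 CPM (−0.76, −1.17 to −0.37).

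Matrix receptors and adhesion molecules had a median of 0.26 over 20 genes, 2 of them at least 2-fold higher. Cdh11, the cadherin of mesenchymal cells, stood at 61.3 CPM in control and 138 CPM in induced fibroblasts (1.16, 0.76 to 1.59). Its UMIs lay in 33 of 96 control and 70 of 115 induced cells, a larger share of cells as well as a higher level. Mcam, an adhesion molecule of vessel-associated cells, had 5 and 20 UMIs (1.73, 0.37 to 3.60). Cd9, a tetraspanin, stood at 1039.6 and 1276 CPM (0.30), Cd34, a sialomucin of fibroblast and stem cell surfaces, at 1144 and 1117 CPM (−0.03), and the lowest ratio was that of Itgbl1, an integrin-like secreted protein (−0.20, −0.45 to 0.06).

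Growth factor receptors were mostly slightly higher, with 19 of 23 above 0 and a median of 0.30. Insr, the insulin receptor, was the only one past 2-fold, with 11 UMIs in 10 control cells and 39 UMIs in 31 induced cells (1.61, 0.66 to 2.77). Lrp1, a large endocytic receptor, stood at 570.4 and 621 CPM (0.12, −0.03 to 0.27), and Tgfbr2, a receptor for transforming growth factor beta, at 359.9 and 355 CPM (−0.02, −0.22 to 0.18). Pdgfra stood at 141 and 183 CPM (0.37, 0.08 to 0.67) and Pdgfrb, its partner receptor, at 109 and 168 CPM (0.62, 0.29 to 0.95). Ptch1, the hedgehog receptor, was the lowest (−0.36, −1.28 to 0.54).

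Secreted growth factors and modulators of the BMP and WNT pathways showed no common direction, with 15 of 33 higher, 18 lower and a median of −0.07. Past 2-fold were 2 genes higher and 2 lower, all on few molecules. Pdgfa, a ligand of Pdgfra, had 4 control and 25 induced UMIs (2.33, 0.94 to 4.45), and Nog, the BMP antagonist noggin, had 5 and 18 (1.58, 0.19 to 3.46). For Pdgfa the ratio was −0.05 when cells also had to carry Pdgfra and Dcn or Lum. Hgf, hepatocyte growth factor, had 16 and 4 UMIs (−2.05, −4.21 to −0.54). Fgf2, basic fibroblast growth factor, had 25 and 12 (−1.20, −2.36 to −0.19), with a ratio of −0.32 among cells with no papilla-gene UMI, whereas its ratio in the other kept cells was 1.29. The member with most UMIs, Igfbp5, a binder of insulin-like growth factors, stood at 2346 and 1601 CPM (−0.55, −0.64 to −0.47).

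Over all genes with at least 100 UMIs, the 12 highest ratios included genes of interferon response and inflammation, genes carried by few cells and a pseudogene. Ptx3 had 43 and 480 UMIs (3.29, 2.86 to 3.79), of which the 5 cells with most UMIs held 83.7% and 87.5%. Mgp, matrix Gla protein, an inhibitor of calcification, stood at 36.4 CPM in 8 control cells and 267 CPM in 29 induced cells (2.86, 2.40 to 3.38). Lbp, the binding protein for bacterial lipopolysaccharide, stood at 46.2 and 188 CPM (2.02, 1.59 to 2.49), with UMIs in 23 and 51 cells.

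Snhg12, a small nucleolar RNA host gene, stood at 30.2 CPM in 26 control cells and 115 CPM in 67 induced cells (1.91, 1.38 to 2.51). Gm8797, an annotated pseudogene, was the most evenly spread of these genes. Its UMIs numbered 48 in 42 of 96 control cells and 1140 in 109 of 115 induced cells, from 42.6 to 899 CPM (4.38, 3.98 to 4.85). The median induced cell held 10 UMIs of Gm8797 and the median control cell 0. It stood apart in the same way outside fibroblasts, with a ratio of 4.66 in the other kept cells. Iigp1, Cxcl9, Cxcl2, C2 and Cxcl10, also among the 12 highest, belong to lists described below, and Plat was given above.

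Gdpd3, a lysophospholipase D, had by far the lowest ratio. It gave 143 UMIs in 45 of 96 control fibroblasts and 1 UMI in 1 of 115 induced fibroblasts, or 127 and 0.79 CPM (−6.75, −12.65 to −4.83), and its ratio was −2.19 in the other kept cells. The highest control cell held 9 UMIs, so the control value was spread over many cells. The next 11 ratios ran from −1.57 to −1.03. Pla2g5, a secreted phospholipase, had 77 and 29 UMIs (−1.57, −2.25 to −0.95), and Serpinb2, plasminogen activator inhibitor 2, had 93 and 38 (−1.45, −2.05 to −0.91). Serpinb2 stood at 82.6 and 29.96 CPM in fibroblasts, against 4842 and 2710 CPM in the other kept cells, where its ratio was −0.84. Whether the fibroblast UMIs of Serpinb2 are background from those cells was not tested. Plpp1, a lipid phosphatase, had 101 and 44 UMIs (−1.36) and Fkbp11, a prolyl isomerase of the secretory pathway, 78 and 36 (−1.28).

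Cldn10, a claudin, stood at 310.1 CPM in control and 140.4 CPM in induced fibroblasts (−1.14, −1.41 to −0.88), with UMIs in 54 and 46 cells. Pdgfrl, a receptor-like secreted protein, stood at 293 and 142 CPM (−1.04, −1.32 to −0.78) in 70 and 75 cells. Both were thus lower in the induced library on more than 500 UMIs summed over libraries. When each cell had equal weight, the ratio of Pdgfrl was −0.90. Hmgn2 and Hmgb2, chromatin proteins that dividing cells make in quantity, had ratios of −1.23 and −1.14, but 5 cells held 75% of the control UMIs of Hmgb2, and without the 5 highest cells of each library its ratio was 0.15. Trim35, a ubiquitin ligase, had 110 and 55 UMIs (−1.17), Gm10076, an annotated pseudogene, 85 and 44 (−1.11), and Cgref1, a secreted protein tied to growth arrest, 164 and 90 (−1.03).

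**Figure D3:**
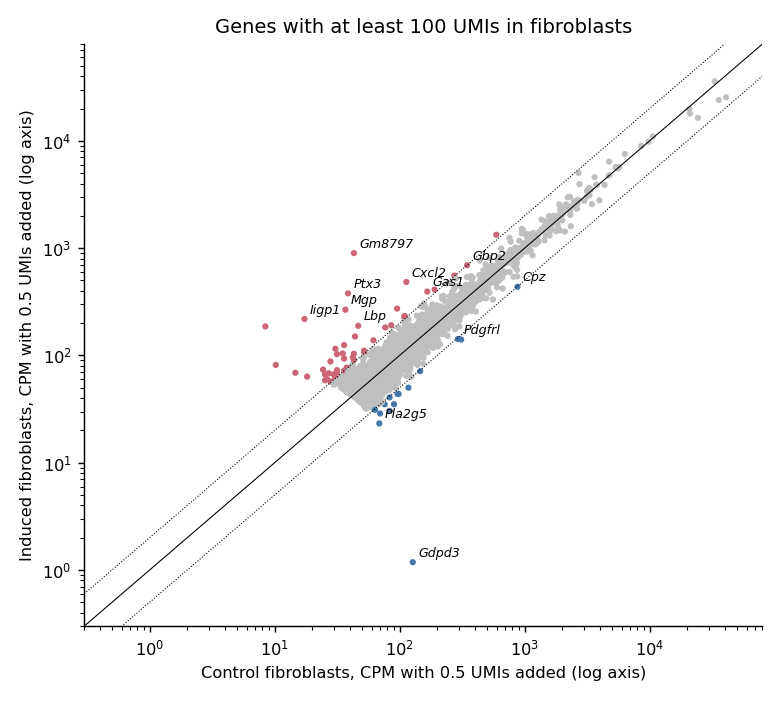
Control against induced fibroblast CPM (0.5 UMIs added, both axes log) for the 2936 genes with at least 100 UMIs; the solid line is equality, dotted lines mark 2-fold, and genes past it are red (45 higher in the induced library) or blue (15 lower). Gm8797 and Gdpd3 lie farthest from equality among genes found in more than 40 cells of a library.

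Interferon-stimulated and MHC class I genes were higher in induced fibroblasts as a group. Of 29 tested, 27 were higher and 2 lower, 11 (37.9%) were at least 2-fold higher and none 2-fold lower, against the 4.26% and 1.98% of all genes at this minimum. The interval lay above 0 for 19 genes and below 0 for none, and the median was 0.62. These genes encode antiviral and antimicrobial proteins and the machinery that shows peptides to T cells, and they are switched on by interferons through STAT and IRF transcription factors. Over the settings tried, the list's median ran from 0.24 to 0.73.

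Iigp1, an immunity-related GTPase, had the highest ratio among members found in both libraries. It stood at 16.9 CPM in 12 control cells and 218 CPM in 31 induced cells (3.66, 3.02 to 4.45). When the cells over the papilla limit were added, Iigp1 had 152 and 350 UMIs and its ratio was 0.93, the lowest of any setting, while that of Gbp3 stayed at 2.24 or above. Its relatives Gbp3, with 4 and 56 UMIs (3.48, 2.20 to 5.56), Igtp, with 18 and 64 (1.63, 0.89 to 2.50), and Gbp2, at 347 and 694 CPM (1.00, 0.83 to 1.18), are GTPases that attack vacuoles of intracellular pathogens. Gbp2 was found in 65 control and 63 induced cells, and its median per cell was 1.5 and 1 UMIs. The highest cell held 25 and 113 UMIs. The ratio of Gbp2 was 0.59 without the 5 highest cells of each library and 0.43 among cells with no papilla-gene UMI.

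The antiviral members were also higher. Ifit1, a sensor of viral RNA, gave no UMI in control and 33 UMIs in 7 induced cells, at least 9.76-fold higher when the control is set at 3 UMIs over the group. Isg15, a ubiquitin-like modifier, had 40 and 91 UMIs (1.00, 0.46 to 1.59), with a ratio of −1.06 when only cells with no papilla-gene UMI were kept. Bst2, the tethering protein tetherin, had 58 and 140 UMIs (1.09, 0.65 to 1.57), Rtp4, a receptor chaperone, 12 and 55 (1.98, 1.11 to 3.06), and Ifi27l2a, a mitochondrial interferon-induced protein, 6 and 18 (1.34, 0.02 to 3.03). Ifitm1, which restricts viral entry, stood at 43.5 and 150 CPM (1.77, 1.32 to 2.27) in 19 and 37 cells, and Irf9, a DNA-binding subunit of the interferon-activated complex, had 7 UMIs in 7 control cells and 42 UMIs in 33 induced cells (2.33, 1.25 to 3.81).

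The MHC class I genes were near level. B2m, the shared light chain, stood at 2151 CPM in control and 2403 CPM in induced fibroblasts (0.16, 0.08 to 0.24), and H2-D1, a heavy chain, at 2132 and 2403 CPM (0.17, 0.10 to 0.25). Psmb8, a subunit of the immunoproteasome, had the lowest ratio of the list (−0.27, −0.58 to 0.03). In the other kept cells the ratios were 0.97 for Iigp1, 1.72 for Gbp2, 1.78 for Bst2 and 2.28 for Ifit1.

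The promoters of the members past 2-fold were read for GAAA, any 2 bases and GAAA again, the core of the interferon-stimulated response element, and for its reverse complement (TTTC, any 2 bases, TTTC), on both strands in windows from 250 bases before to 50 bases after the RefSeq gene start (GRCm38.p6). Of all 32851 such windows, 1131 (3.44%) held it. Counted by gene symbol, as in the counts below, 1079 of 27025 (3.99%) held it in a window. Among the 33 genes of the list, 28 had a window and 13 of them held the motif. Of the 11 members past 2-fold, 8 had a window and 6 held the motif, and these 6 are shown with the motif in capitals and 10 bases on each side; the windows of Irf9 and Ifitm1 did not hold these letters. A match describes the sequence and does not show that a factor binds there. Matches can overlap, as they do in Gbp3, Bst2 and Isg15, and 1 match is printed for each gene.

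Gbp2, chr3:142620594-142620623, plus strand, motif starting 59 bases before the gene start: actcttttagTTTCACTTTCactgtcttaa
Gbp3, chr3:142559989-142560018, plus strand, 45 bases before: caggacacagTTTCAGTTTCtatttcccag
Igtp, chr11:58199512-58199541, plus strand, 34 bases before: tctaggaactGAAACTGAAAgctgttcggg
Ifit1, chr19:34640794-34640823, plus strand, 85 bases before: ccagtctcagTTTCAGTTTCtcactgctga
Isg15, chr4:156200871-156200900, minus strand, 72 bases before: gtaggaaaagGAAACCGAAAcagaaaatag
Bst2, chr8:71537577-71537606, minus strand, 124 bases before: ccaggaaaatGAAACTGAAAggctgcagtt

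The difference lay partly in the few cells with most of these transcripts. Summed over the 11 members past 2-fold, the median fibroblast held 4 UMIs in the control library and 4 in the induced library. The quartiles ran from 2 to 7 and from 1 to 12, and the highest cell held 43 and 223. Cells with 10 or more such UMIs were 20 of 96 control (20.8%) and 32 of 115 induced (27.8%). The 5 highest cells held 24.9% of the control and 45.4% of the induced UMIs, and the sum stood at 536 and 1456 CPM, a 2.72-fold difference. Without those 5 cells in each library it stood at 429 and 848 CPM, a 1.98-fold difference. The genes were picked for their ratio, so these sums describe how the difference was spread over cells and give it no support.

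Chemokines and cytokines had the highest median of the 17 lists, 0.89 over 19 genes, with 7 at least 2-fold higher and none lower. Ccl2, which recruits monocytes, stood at 2703 CPM in control and 5024 CPM in induced fibroblasts (0.89, 0.83 to 0.96), with UMIs in 60 and 62 cells. Its ratio in the other kept cells was −0.23. Ccl7, a related monocyte chemokine, stood at 2751 and 3951 CPM (0.52, 0.46 to 0.59). Il6, interleukin 6, was the lowest, at 601 and 431 CPM (−0.48, −0.65 to −0.32).

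The members past 2-fold rested on few cells. Cxcl10, an interferon-induced attractant of T cells, had 40 UMIs in 14 control and 158 UMIs in 19 induced cells (1.80, 1.30 to 2.35), with a ratio of 0.73 without the 5 highest cells of each library and of 0.14 at 50 collagen UMIs. Cxcl9, which binds the same receptor, had 11 UMIs in 2 and 103 UMIs in 4 cells (3.00, 2.16 to 4.10), with a ratio of 0.47 at 50 collagen UMIs. Cxcl2, which recruits neutrophils, had 127 UMIs in 6 and 613 UMIs in 15 cells (2.09, 1.82 to 2.39), and 5 cells held 99.2% and 93.8% of them. Subgroup 6 of the clustering described below held 91 and 447 of these UMIs, with a ratio of 0.67 there, and subgroup 1 held 2 and 145. Cxcl5, another neutrophil chemokine, gave no control UMI and 44 induced UMIs in 2 cells, at least 13.0-fold higher, while its ratio in the other kept cells was −4.03. Those 44 UMIs all lay in subgroup 6.

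Il33, a nuclear alarmin of stromal cells, had 5 UMIs in 3 control and 45 UMIs in 7 induced cells (2.88, 1.67 to 4.69). Tslp, an epithelial and stromal cytokine, had 6 and 17 UMIs (1.26, −0.08 to 2.96), and Ackr4, a scavenging chemokine receptor, 11 and 26 (1.03, 0.00 to 2.23). All 3 thus rest on fewer than 50 UMIs in the induced library, and the interval of Tslp holds 0. Over the settings tried, the median of the chemokine list ran from 0.47 to 0.89.

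Complement and acute phase genes had a median of 0.31 over 15 genes, 3 at least 2-fold higher and 1 lower. C2, the protease precursor of the classical pathway, had 20 UMIs in 14 control and 80 UMIs in 38 induced cells (1.80, 1.11 to 2.61), and Cfb, complement factor B, 35 and 92 UMIs (1.21, 0.65 to 1.83) in 14 and 25 cells. C3, the central component, stood at 255 and 475 CPM (0.90, 0.69 to 1.11), in 40 cells of each library. C1rb, a near copy of C1ra, gave 48 UMIs in 32 control cells and 1 UMI in 1 induced cell (−5.19, −11.09 to −3.21), and its ratio was −5.45 in the other kept cells. The metallothioneins Mt1 and Mt2, which bind zinc and copper, had ratios of 0.00 (−0.05 to 0.05) and 0.31 (0.23 to 0.39).

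Dissociation of tissue can itself switch on immediate early and heat shock genes. Of 23 immediate early genes, 2 were at least 2-fold higher and none lower, with a median of 0.27. Egr2 and Egr3, zinc finger transcription factors, had 6 and 35 UMIs (2.28, 1.11 to 3.91) and 17 and 39 UMIs (1.00, 0.17 to 1.94). Jund and Fos, subunits of the AP-1 factor, stood at 1948 and 1863 CPM (−0.06) and at 1013 and 1368 CPM (0.43), and Atf3 had the lowest ratio (−0.37, −0.56 to −0.19). The sign of this median turned under 2 settings, to −0.03 when each cell had equal weight and to −0.05 after thinning to 3000 UMIs. None of 15 heat shock genes passed 2-fold, with a median of 0.02. Hspa8, a constitutive chaperone, stood at 3308 and 3124 CPM (−0.08), Hspa1a, an inducible one, was the lowest (−0.39) and Hspb1, a small heat shock protein, the highest (0.57).

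Among many bound transcripts, the study gives some by name as examples of miR-205 targets, and these code for proteins of contractility and mechanical sensing. None of these 6 was 2-fold different in fibroblasts. None was 2-fold different in the other kept cells either, which are mostly epithelial, so this limit does not tell them apart. Whether the keratin 14 driver bears on these ratios was not tested. Their median was 0.04, which equals that of all genes at this precision. Rock2, a kinase that drives actomyosin contraction, stood at 532 CPM in control and 482 CPM in induced fibroblasts (−0.14, −0.31 to 0.02). Actb, the cytoplasmic actin, stood at 2999 and 2784 CPM (−0.11, −0.18 to −0.04), the only one whose interval excludes 0. Piezo1, the mechanically gated ion channel, stood at 78.2 and 74.9 CPM (−0.06, −0.50 to 0.37).

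Ctnna1, the catenin that links cadherins to actin, stood at 96.9 and 106 CPM (0.14, −0.24 to 0.51), and the actin crosslinkers Actn1 and Actn4 at 16.9 and 18.9 CPM (0.16, −0.77 to 1.11) and at 88.9 and 99.4 CPM (0.16, −0.23 to 0.56). These intervals allow a difference in either direction, and that of Actn1 reaches past 2-fold. In the other kept cells, which are mostly epithelial, the ratios were −0.28 for Rock2, −0.29 for Actb, −0.02 for Piezo1, −0.14 for Ctnna1, 0.17 for Actn1 and −0.25 for Actn4. The intervals in fibroblasts hold the value of the other cells for Rock2, Piezo1, Ctnna1 and Actn1.

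Over 52 genes of the actin cytoskeleton the median was 0.14, with 1 at least 2-fold higher and none lower. Tagln, transgelin, the calponin-like protein of contractile cells, was the lowest, at 30 and 20 UMIs (−0.75, −1.65 to 0.11). Gsn, gelsolin, which severs actin filaments, stood at 6344 and 7545 CPM (0.25, 0.21 to 0.29), and Vim, the intermediate filament vimentin, at 4746 and 6400 CPM (0.43, 0.38 to 0.48).

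Cell cycle and growth arrest genes had a median of 0.21 over 15 genes, with 2 at least 2-fold higher and 2 lower. Gas1, a membrane protein named for growth arrest and a hedgehog co-receptor, stood at 166 CPM in 45 control cells and 393 CPM in 67 induced cells (1.24, 1.00 to 1.49). Cdkn2c, an inhibitor of the cyclin D kinases, had 8 and 26 UMIs (1.47, 0.34 to 2.88). Gadd45b, a stress and growth arrest gene, stood at 522 and 811 CPM (0.64). The lower members are genes of dividing cells. Top2a, a topoisomerase of S and G2 phase, had 28 and 3 UMIs in 2 and 2 cells (−3.20, −5.76 to −1.70), and Stmn1, a regulator of microtubules, had 61 UMIs in 6 and 28 UMIs in 16 cells (−1.28, −2.00 to −0.63). Of the control UMIs of Stmn1, 54 lay in 2 cells, and its ratio was −0.14 when each cell had equal weight. That of Top2a was −0.69 among cells with no papilla-gene UMI.

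Markers of fibroblast kinds were compared next. Papillary markers had a median of 0.28 over 10 genes, with Axin2, a negative regulator and target of WNT signalling, past 2-fold at 9 and 24 UMIs (1.19, 0.09 to 2.53). Reticular markers had a median of 0.38 over 7 genes and 3 past 2-fold, namely Mgp, Gpx3 and Plac8. Gpx3, a secreted glutathione peroxidase, had 107 UMIs in 10 control and 346 UMIs in 14 induced cells (1.52, 1.20 to 1.85), and Plac8 gave no control UMI and 69 UMIs in 2 induced cells, at least 20.4-fold higher. Ly6a, a surface antigen of reticular fibroblasts, was near level (0.08, −0.01 to 0.18), and Dlk1, another marker of that lineage, gave only 3 and 1 UMIs.

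Of 9 fascia and adventitial markers none passed 2-fold, and the median was 0.11. Pi16 stood at 887 CPM in control and 825 CPM in induced fibroblasts (−0.10, −0.23 to 0.02), with UMIs in 74 and 72 cells. Adipogenic markers had a median of 0.57 over 6 genes, with Ebf2, a factor of adipocyte precursors, at 6 and 22 UMIs (1.62, 0.36 to 3.29). Of these Ebf2 UMIs, 6 and 21 lay in subgroup 6 of the clustering described below, which has 5 control and 9 induced cells. Within that subgroup the ratio of Ebf2 was 0.10. Among genes of the papilla outside the rule, Enpp2, which encodes autotaxin, was past 2-fold at 123 UMIs in 32 control cells and 295 UMIs in 64 induced cells (1.09, 0.78 to 1.41).

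Clustering of the 211 cells, with the 9 rule genes and the genes of the 17 lists kept out, gave 6 subgroups, each holding cells of both libraries. They are called by number. Their leading genes are given to describe them and are no finding, although leaders from the 17 lists, such as Vcam1, Vcl, Postn, Dkk2, Igf1, Mfap4, Hspa1a and Cxcl2, took no part in the clustering. Subgroup 1, 46 control and 29 induced cells with a median of 1421 collagen UMIs, led with Gpx3, Stat5b and Vcam1. Subgroup 2, 15 and 29 cells with 114 collagen UMIs, led with Coch, Vcl and Postn, and subgroup 3, 12 and 20 cells with 132, with Aqp1 and Dkk2. Of the Aqp1 UMIs of subgroup 3, 1 cell held 63.5%. Subgroup 4, 9 and 18 cells with 356, led with Igf1, Mfap4 and Hspa1a. Subgroup 5, 9 and 10 cells with 2605, led with Igfbp2 and Qpct. Subgroup 6, 5 and 9 cells with 54, led with genes that include Ptx3, Cxcl2 and Apod, and none of its cells had a UMI of Pi16. Markers of fibroblast kinds and of other lineages, among them Gpx3 and Mgp, were not kept out. Collagen level differed widely among subgroups, and the libraries were spread unevenly over them. Sizes were not compared between libraries.

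Because of that uneven spread, list sums were also set side by side within subgroups. The interferon list, B2m and MHC genes included, was higher in the induced cells of 5 of 6 subgroups, from 12072 to 17431 CPM in subgroup 1 and from 8408 to 14251 CPM in subgroup 4, and was lower in subgroup 2, from 10348 to 8684 CPM. Chemokines went from 11366 to 20123 CPM in subgroup 1 and from 53335 to 53821 CPM in subgroup 6. The collagen synthesis list, lower over all fibroblasts, was lower in 2 subgroups, from 8698 to 8412 CPM in subgroup 1 and from 4258 to 3334 CPM in subgroup 2, and higher in the other 4, by the most in subgroup 6, from 1834 to 3619.8 CPM on 45 and 274 UMIs. The matricellular list, which holds Sparc, was lower in subgroups 1 and 5 and higher in the other 4.

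Single genes followed the subgroups differently. Iigp1 stood at 16.2 CPM in control and 563 CPM in induced cells of subgroup 1, found in 6 of 46 and 17 of 29 cells, and at 97.2 and 110 CPM in subgroup 4. Gbp2 went from 506 to 1541 CPM in subgroup 1, from 101 to 401 CPM in subgroup 3 and from 121 to 234 CPM in subgroup 2. C3 went from 409 to 1039 CPM in subgroup 1 and from 227 to 807 CPM in subgroup 4, but from 90.4 to 10.3 CPM in subgroup 2 and from 43.3 to 0 CPM in subgroup 3. In subgroup 5 C3 stood at 19.8 and 102 CPM. Fn1 went from 1367 to 1102 CPM in subgroup 1. It was also lower in subgroups 3, 4 and 5 and higher in subgroups 2 and 6. Pdgfrl went from 415 to 169 CPM in subgroup 1, was also lower in subgroups 2 and 5, and was higher in 3 and 4. Cldn10 went from 409 to 250 CPM in subgroup 1 and from 582 to 372 CPM in subgroup 5. It was also lower in subgroup 4 and higher in 2 and 3 on few UMIs. In contrast, Gm8797 was higher and Gdpd3 lower in the induced cells of all 6 subgroups.

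**Figure D4:**
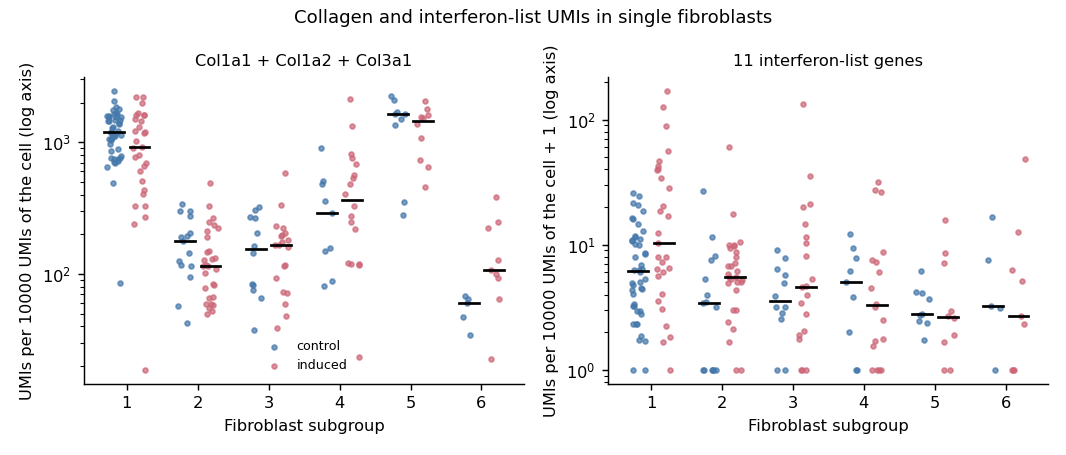
UMIs of the 3 rule collagens (left) and of the 11 interferon-list genes past 2-fold, with 1 added (right), per 10000 UMIs of each cell on log axes, by subgroup for control (blue) and induced (red) fibroblasts; black bars are medians. Collagen differs widely between subgroups, and the highest interferon values are induced cells.

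**Figure D5:**
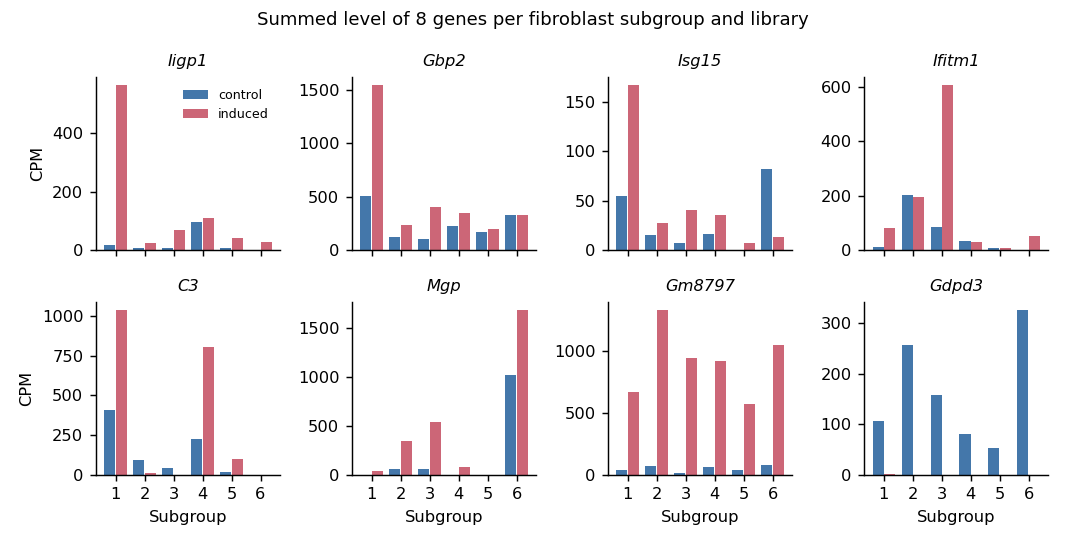
Summed level in CPM of 8 genes in each of the 6 fibroblast subgroups, control in blue and induced in red, with axes from 0. Iigp1, Gbp2 and C3 are highest in the induced cells of subgroup 1, while Gm8797 and Gdpd3 differ between libraries in every subgroup.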

How the data were processed

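The authors deposited a matrix of raw UMI counts for each of 2 single-cell libraries, made with Cell Ranger (version 3.0.1 in the file header) on mm10 per the labels; the counts carry no normalization, and no statement on doublet removal was found. Cells with more than 200 and fewer than 5000 genes and under 10% mitochondrial UMIs were kept. Counts of fibroblasts were summed per library and scaled to 1000000 UMIs (CPM, counts per 1000000). Log2 ratios carry 0.5 added UMIs, and their 95% intervals are exact binomial intervals on the 2 sums; shares have Clopper-Pearson intervals and their difference a Newcombe interval. Detection shares were thinned to 3000 UMIs. UMI counting limits PCR copies, and intervals cover counting error only.

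The members, the gene lists and the settings were chosen with earlier results of these data known. Named genes were the 12 highest and 12 lowest ratios among genes with at least 100 UMIs, and in each list the 2 members with most UMIs, the highest, the lowest and all past 2-fold; class lists, levels and subgroup leaders had like rules. A few genes that meet these rules are not reported here. Genes that stand for near copies or pseudogenes (Gm8797, Gm10076, C1rb, Hspa1a, H2-D1) may share reads with a relative and are uncertain.

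Subgroups came from Leiden clustering at resolution 0.6 on 10 principal components of 1000 variable genes with 15 neighbours (scanpy 1.11.5, numpy 2.4.6, scipy 1.17.1, pandas 2.3.3, python 3.11.15). The scripts were tested on simulated data. Doublet scores came from Scrublet, whose automatic threshold marked 4 barcodes per library and was not used; the 165 control and 145 induced barcodes with the highest scores, 12 and 11 of them fibroblasts, were left out as an alternative only. Other alternatives changed the limits of the rule, the depth, the scaling, the minimum of UMIs and the cells included.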

Additional observations from a re-analysis of the deposited data

Results flagged for a closer look

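Of the genes taken up by the list rules, 2 were past 2-fold 1 way in fibroblasts and past 2-fold the opposite way in all other kept cells, and with 1 library per group neither difference was tested. Fgf2 had a log2 ratio of −1.20 in fibroblasts (25 control and 12 induced UMIs) and of 1.29 in the other kept cells. Cxcl5 had a fitted log2 ratio of 6.30 in fibroblasts, which depends on the added 0.5 UMIs since no control UMI was counted, and of −4.03 in the other kept cells; its 44 induced UMIs lay in 2 cells.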

How the results depend on the processing

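Of 1393 values under 17 alternative settings for 134 results, 1193 were scored as unchanged, 194 as moved and 6 as reversed. Unchanged means inside the main value's interval or, for counts, close to the main count, so a small ratio could change sign there. Reversal was scored only for genes past 2-fold and for list medians whose interval held only 1 sign. The median over all genes was counted as unchanged throughout. Counts of genes at least 2-fold higher were 320 at a minimum of 20 UMIs, 8 at 500 UMIs, 12 after thinning to 3000 UMIs and 23 with no papilla-gene UMI allowed, against 45. Counts of genes at least 2-fold lower were 149, 3 and 3 under the first 3 of these and 8 with under 5% mitochondrial UMIs, against 15. The median of the named miR-205 targets was 0.18 without the highest-scoring doublets, that of proteases −0.0641 after thinning, and that of immediate early genes −0.0294 when each cell had equal weight and −0.0513 after thinning. With no papilla-gene UMI, Serpine2 stood at −0.75 and Isg15 at −1.06. Pdgfa stood at −0.0495 when Pdgfra and Dcn or Lum were required, and Hmgb2 at 0.15 without its 5 highest cells, a setting chosen after seeing the data. The cause of each change was not tested. No paired analysis was possible because each group is 1 library and the labels carry no shared replicate number. Of 58 named genes past 2-fold, 28 stayed past 2-fold in the same direction under every setting that was run gene by gene and gave a value. The setting without the 5 highest cells gave no value where fewer than 20 UMIs remained. Genes carried by few cells, such as Cxcl5, thus count among the 28 without having met it.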
